A study of Mus musculus with 6 samples.

Results

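Cadherins and protocadherins are the calcium-dependent adhesion and recognition proteins of the cell surface. They were taken here as the genes whose symbols name a numbered *Cdh*, *Cdhr*, *Fat*, *Dchs* or *Celsr* gene or begin with *Pcdh*, and 94 of the 19270 genes in the authors' table met this rule. They comprised 15 classical cadherins, of which 5 were type I and 10 type II, 3 other *Cdh* and 2 *Cdhr* genes, 9 *Fat*, *Dchs* and *Celsr* genes, 12 non-clustered protocadherins and 53 clustered protocadherins (10 *Pcdha*, 21 *Pcdhb* and 22 *Pcdhg*). Of the 18 classical cadherins listed, *Cdh8*, *Cdh9* and *Cdh20* were not analysed here.

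RNA was sequenced from the proximal incisor of 3 control and 3 *Arid1b* mutant samples, collected 4 days after tamoxifen from mice aged 1 month. The mutants carried *Gli1-CreER;Arid1bfl/fl*, so that tamoxifen activates Cre in *Gli1*-expressing cells and deletes the floxed *Arid1b* alleles there, and cells outside the *Gli1* lineage keep them. The controls are wild type in the sample labels and *Arid1bfl/fl* in the study's methods, and both groups received tamoxifen. The labels name the tissue as incisor, the methods name it as dissected mesenchyme, and whether each sample came from a single mouse is not given in the sources used here. The values analysed were the authors' means of a normalized signal for each group. No value per gene and sample was analysed, so no mean below carries an SD, no difference was tested, and the spread between mice is unknown for every gene.

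Classical cadherins bind the same cadherin on a neighbouring cell and connect through β-catenin and α-catenin to actin. *Cdh1* (E-cadherin) is known from epithelia, *Cdh2* (N-cadherin) and *Cdh11* (OB-cadherin) from mesenchyme, and the continuously growing mouse incisor holds both tissues side by side at its proximal end. The giant cadherins of the Fat and Dachsous families bind each other across cell borders, and the Celsr proteins are seven-pass receptors of planar cell polarity. The clustered protocadherins lie in tandem arrays in which each variable exon has its own promoter, chosen with the help of CTCF and cohesin. In the *Pcdha* and *Pcdhg* arrays the variable exons are spliced to shared constant exons, and the family is best known for giving single neurons their surface identity.

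Among the members with a promoter in the RefSeq table, which held 30 promoters of 27 of the 94 members, a promoter is shown from each direction of difference. *Celsr2* was 1.67-fold higher and *Pcdh9* just over 1.5-fold lower in mutants. Each sequence runs from 250 bases before to 50 after the annotated start on the minus strand of GRCm38.p6, from chr3:108415530-108415829 for *Celsr2* and from chr14:93890630-93890929 for *Pcdh9*.
Celsr2: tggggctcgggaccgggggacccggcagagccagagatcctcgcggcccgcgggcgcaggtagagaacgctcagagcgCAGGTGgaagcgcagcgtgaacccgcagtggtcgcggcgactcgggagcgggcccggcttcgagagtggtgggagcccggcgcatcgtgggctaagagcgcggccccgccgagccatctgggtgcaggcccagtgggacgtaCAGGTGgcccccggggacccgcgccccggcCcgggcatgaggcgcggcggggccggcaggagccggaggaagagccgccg
Pcdh9: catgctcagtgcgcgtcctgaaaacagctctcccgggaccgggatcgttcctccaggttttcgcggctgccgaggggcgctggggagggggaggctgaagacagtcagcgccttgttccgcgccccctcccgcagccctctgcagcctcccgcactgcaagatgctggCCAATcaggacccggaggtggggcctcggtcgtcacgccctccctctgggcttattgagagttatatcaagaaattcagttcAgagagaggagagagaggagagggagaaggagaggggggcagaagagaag
Capitals mark the start base, which is base 251 from the left, and each match to the letters searched on both strands. These were the E-box CAGGTG or CACCTG, which repressors of the Snail and ZEB families bind, the GC box GGGCGG or CCGCCC, and the CCAAT box CCAAT or ATTGG. The *Celsr2* window held 2 E-boxes, beginning 172 and 30 bases before the start, and the *Pcdh9* window held a CCAAT box beginning 82 bases before the start. No marked matches overlapped, and neither window held a GC box. The promoters shown were not those of the largest differences. *Fat2* (3.88-fold higher) and *Cdh18* (1.70-fold lower) also had a matched promoter, with neither an E-box nor a GC box. E-boxes were in 9 of the 30 member promoters, or 30%, and in 20.2% of all 32851 promoters of the same length. These 9 include several promoters of the same gene, *Cdh7*, so they stand for fewer genes. GC boxes were in 33.3% of member promoters against 35.7% of all, and CCAAT boxes in 46.7% against 37.4%. The median GC content was 60.5% in member promoters and 52.7% in all promoters, with 76.3% for *Celsr2* and 62.7% for *Pcdh9*. *Cdh1*, *Cdh2*, *Cdh3* and *Cdh11* were not among the promoters matched.

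The deleted gene *Arid1b* had a mean of 97.6 in controls and 38.0 in mutants, 2.57-fold lower. *Gli1* itself was at 106.4 in controls and 46.1 in mutants. The mutants carried *Gli1-CreER* and the controls are given without it, so the driver and the deletion cannot be told apart. The libraries were estimated at 37123643 to 49594469 reads on genes, from their lowest and mean values. A signal of 1 then stands for about 37.8 to 40.4 reads per control library and 38.1 to 52.3 reads per mutant library, and 3 reads in every library give a mean of 0.103 in controls and 0.0923 in mutants. The Y-linked genes *Ddx3y*, *Eif2s3y*, *Uty* and *Kdm5d* had means of 0.0259 to 0.0434 in controls and 25.3 to 65.3 in mutants, and *Xist* was at 3368 and 813.8. The sex composition of the mice therefore differed between the groups, and genotype and sex cannot be told apart in any difference below.

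Most cadherins and protocadherins had similar means in the control and mutant incisors. Of the 94 members, 38 were higher, where 50.5% of all genes were higher, and 56 lower in mutants by any amount, with a median log2 ratio of -0.05 against 0.002 over all genes. A ratio of means over 1.5-fold was reached by 14 members, 8 higher and 6 lower, or 14.9%, where 13.2% of all 19270 genes reached it (7.37% higher and 5.8% lower). The share among the members was thus near that of all genes.

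The 1.5-fold limit was passed mostly by genes with few reads. Among genes with a mean over both groups under 1, 36.4% passed it, and 7 of the 17 members in that range did. Among the 77 members with a mean of at least 1, 7 passed, or 9.09%, against 6.05% of the 14744 such genes (4.14% higher and 1.91% lower). The 5 higher members were *Cdh1*, *Cdh4*, *Celsr2*, *Fat2* and *Pcdha4*, and the 2 lower members were *Cdh18* and *Pcdh9*. With a mean of at least 10, 4 of 41 members passed, namely *Cdh1*, *Celsr2*, *Fat2* and *Pcdh9*, against 3.06% of the 10311 such genes. The members just past the limit were *Pcdh9* at 1.5002-fold, *Cdhr1* at 1.505-fold and *Pcdha11* at 1.515-fold. Just short of it were *Cdh3* at 1.480-fold, *Celsr3* at 1.456-fold and *Pcdha12* at 1.452-fold.

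**Figure D1:**
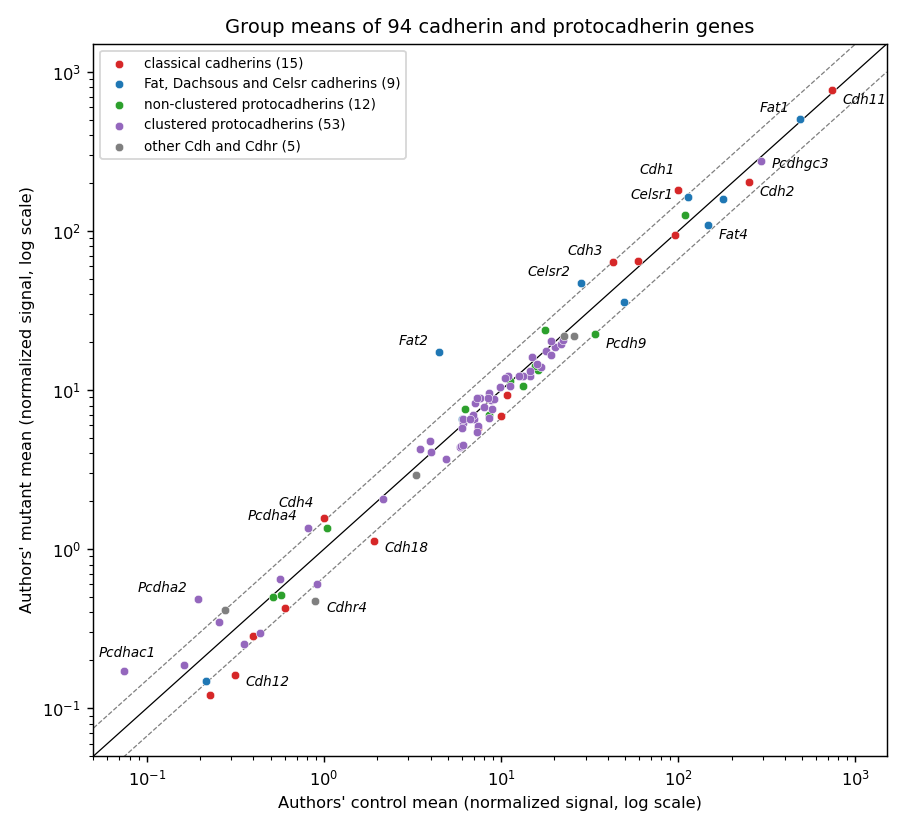
Control mean (x axis) and mutant mean (y axis) of each of the 94 members, in normalized signal on log scales. Points are coloured by group of genes, the solid line marks equal means and the dashed lines a 1.5-fold difference. *Fat2*, at 4.49 in controls and 17.4 in mutants, lies farthest from the solid line among members above a mean of 1, while the clustered protocadherins above a mean of 1 lie between the dashed lines except *Pcdha4*.

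Of the type I classical cadherins of epithelium, *Cdh1* was higher in mutants past the 1.5-fold limit. *Cdh3* was higher, and N-cadherin lower, within it. *Cdh1*, on chromosome 8 of GRCm38 from 106603351 to 106670246, had a control mean of 100.2 and a mutant mean of 180.8, a 1.81-fold difference (log2 ratio 0.85). Its neighbour *Cdh3* (P-cadherin), which ends 46053 bases before *Cdh1* begins and is known from basal epithelial cells, had means of 42.9 and 63.6, a log2 ratio of 0.57 that stayed within the limit. *Cdh4* (R-cadherin) was low in both groups, at 1.01 and 1.57. *Cdh2* was at 249.5 in controls and 204.8 in mutants, a log2 ratio of -0.29. *Cdh15*, the cadherin of muscle precursors, had means of 0.396 and 0.287. The median log2 ratio of the 5 type I genes was 0.57.

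Epithelial markers moved with *Cdh1* and *Cdh3*. All 8 listed markers were higher in mutants, 6 of them over 1.5-fold. Of the 7 with a mean of at least 1, 5 passed, where 4.14% of all such genes were higher past the limit. The list was chosen with earlier results of these data known. The summed mean of the 8 markers was 321.2 in controls and 661.5 in mutants, 2.06-fold higher. The basal keratins *Krt5* (154.2 and 358.5) and *Krt14* (90.4 and 182.3) made up most of that sum. *Epcam*, a surface protein of epithelia, had means of 24.7 and 42.5, while *Krt8* (15.3 and 16.4) and *Krt18* (7.504 and 8.83) lay within 1.5-fold. None of the 8 was at 0, and the lowest was *Cldn4* at 0.269 and 0.777. Set against the summed markers, *Cdh1* amounted to 31.2% in controls and 27.3% in mutants, and *Cdh3* to 13.4% and 9.61%. The part of epithelial content in these differences was not tested. In bulk tissue, more cells of a type and more RNA per cell cannot be told apart.

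The mesenchymal markers were present in both groups, and 7 of 8 lay within 1.5-fold. Of all genes with a mean of at least 1, 6.05% passed that limit. By direction, 2 markers were higher and 6 lower in mutants by any amount, with a median log2 ratio of -0.18. *Gli1* alone of them passed 1.5-fold, and the part of the *Gli1-CreER* driver in its difference was not tested. *Vim*, an intermediate filament of mesenchyme, had means of 1463 and 1208, and *Msx1*, a transcription factor of dental mesenchyme, 230.6 and 207.6.

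The type II cadherins were mostly lower in mutants, and those with the highest signal lay near equality. *Cdh11*, on chromosome 8 from 102632095 to 102785642, had the highest signal of all members, at 733.5 in controls and 774.1 in mutants (log2 ratio 0.08). *Cdh6*, also known as K-cadherin, had means of 59.3 and 65.3, the most positive log2 ratio of the type II genes at 0.14. *Cdh5* (VE-cadherin), which joins endothelial cells, had means of 95.2 and 94.4, and the 8 endothelial markers had a summed mean of 303.1 and 308.8 with none past 1.5-fold. All 8 had a mean of at least 1, where 6.05% of all such genes passed.

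The other 7 type II genes were all at or below 10.8 and all lower in mutants by some amount. *Cdh18*, best known from the nervous system, had means of 1.91 and 1.12 and was 1.70-fold lower. *Cdh19*, known from Schwann cells and their precursors, was at 9.96 and 6.88, 1.45-fold lower. *Sox10*, a transcription factor that defines glia, was low in both groups, with means of 1.09 and 0.798. The other 4 glial markers reported here were higher in mutants, *Erbb3* at 7.51 and 9.83, *Mbp* at 11.3 and 15.2, *S100b* at 1.18 and 1.83, and *Gfra3* at 0.299 and 0.432. Their direction was thus opposite to that of *Cdh19*, and the part of glial content in this difference was not tested. *Cdh22* (7.36 and 5.75) and *Cdh24* (10.8 and 9.37) were lower within the limit. *Cdh7* (0.228 and 0.121) and *Cdh12* (0.314 and 0.161) passed it, and *Cdh10* (0.605 and 0.426) did not, all with a mean under 1. The median log2 ratio of the 10 type II genes was -0.43, and -0.20 for the 7 with a mean of at least 1.

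**Figure D2:**
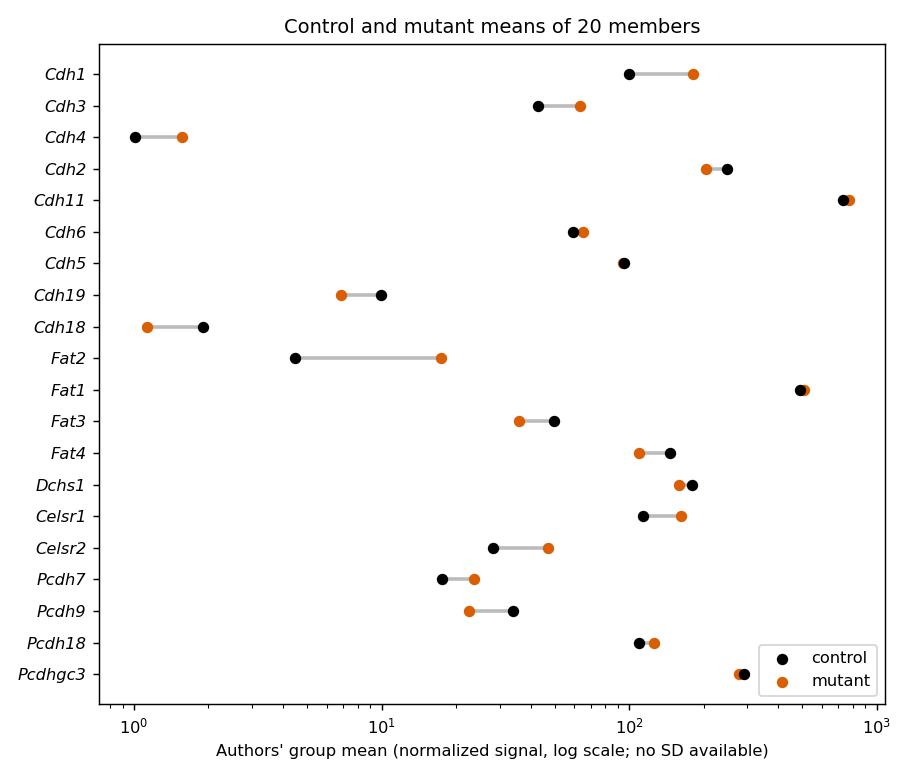
Control (black) and mutant (orange) means of 20 members from every large group except *Pcdha* and *Pcdhb*, in normalized signal on a log scale, with a grey line joining both means of a gene. No error bars are drawn because only group means were analysed. *Fat2* has the longest line, and *Cdh11*, *Fat1*, *Cdh5* and *Pcdhgc3* have means that nearly coincide.

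Among the *Fat*, *Dchs* and *Celsr* genes, *Fat2* and *Celsr2* were higher in mutants past the 1.5-fold limit. *Celsr1* was higher, and *Fat3* and *Fat4* lower, within it. *Fat2*, on chromosome 11 from 55250609 to 55336564, encodes a Fat cadherin known from migrating epithelial cells and cerebellar granule cells. Its control mean was 4.49 and its mutant mean 17.4, a 3.88-fold difference (log2 ratio 1.96), the 123rd highest ratio among all 19270 genes. *Fat1*, the most abundant Fat gene, had means of 489.2 and 507.2 (log2 ratio 0.05). *Fat4*, the receptor for Dachsous ligands, was at 146.9 and 109.5 (log2 ratio -0.42), and *Fat3* was at 49.5 and 35.9 (log2 ratio -0.46). *Dchs1*, the ligand of *Fat4*, had means of 179.6 and 158.8 (log2 ratio -0.18), and *Dchs2* 6.02 and 6.61.

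The planar polarity receptors *Celsr1* and *Celsr2* were both higher. *Celsr1*, on chromosome 15 from 85898929 to 86033777, had means of 113.7 and 162.8, 1.43-fold higher and within the limit. *Celsr2*, on chromosome 3 from 108390851 to 108415552 and with the E-boxes shown above, had means of 28.1 and 47.0, 1.67-fold higher. *Celsr3*, the family member of the nervous system, was very low at 0.216 and 0.148. As a percentage of the summed epithelial markers, *Celsr1* was at 35.4% in controls and 24.6% in mutants, *Celsr2* at 8.76% and 7.11%, and *Fat2* at 1.40% and 2.63%. Of these 3 genes, *Fat2* was the one whose percentage was higher in mutants, with the sum made up mostly of *Krt5* and *Krt14*. Those keratins were 2.32- and 2.02-fold higher, while *Krt8* and *Krt18* were 1.07- and 1.18-fold higher. The percentages thus depend on which markers are summed. The part of epithelial content in the *Fat2* difference was not tested. The median log2 ratio of all 9 genes was 0.05, with 5 higher and 4 lower.

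The 12 non-clustered protocadherins spread to both sides of equality, with 5 higher, 7 lower and a median log2 ratio of -0.09. *Pcdh9*, on chromosome 14 from 93013410 to 93890679, is a δ1-protocadherin and was the only one past 1.5-fold, at 33.8 in controls and 22.5 in mutants (log2 ratio -0.59). *Pcdh7*, of the same δ1 group, had the most positive log2 ratio, 0.43, with means of 17.6 and 23.7. The other δ1 genes were *Pcdh1* at 13.4 and 10.7 and *Pcdh11x* at 0.571 and 0.517. *Pcdh18* had the highest signal of the 12, at 109.2 and 125.5 (log2 ratio 0.20), and belongs to the δ2-protocadherins, whose cytoplasmic tails can bind a regulator of actin.

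The remaining δ2 genes had lower levels. *Pcdh10* was at 16.2 in controls and 13.5 in mutants, *Pcdh17* at 15.6 and 14.2, *Pcdh19* at 8.55 and 6.93, and *Pcdh8* at 1.05 and 1.36. The median log2 ratio was -0.23 over the 4 δ1 genes and -0.14 over the 5 δ2 genes. *Pcdh12*, an endothelial protocadherin, had means of 11.2 and 11.4, near equality like those of *Cdh5*. *Pcdh20* was at 6.26 and 7.59, and *Pcdh15*, a protein of hair-cell tip links, at 0.513 and 0.498. *Pcdh11x* and *Pcdh19* are the 2 members on chromosome X.

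Of the cadherins outside these groups, none with a mean of at least 1 passed the limit. *Cdh13* (T-cadherin), which is anchored to the membrane by a lipid and lacks a cytoplasmic tail, had means of 22.5 and 22.01. *Cdh23*, the partner of *Pcdh15* in tip links, was at 25.8 and 21.9, and *Cdh17*, the cadherin of liver and intestine, at 3.30 and 2.93. Both *Cdhr* genes had a mean under 1 and passed the limit in opposite directions, *Cdhr1* at 0.275 and 0.414 and *Cdhr4* at 0.895 and 0.472. In *Cdhr4*, 40.0% of the 50-base stretches of its annotated transcripts also occurred in transcripts of other genes, so its reads may have been shared between genes.

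The clustered protocadherins, all on chromosome 18, had nearly equal summed means in both groups. Their sum was 732.6 in controls and 701.5 in mutants, a ratio of 0.958. Of the 53 genes, 22 were higher and 31 lower, with a median log2 ratio of -0.03, and 4 passed 1.5-fold. All 4 were *Pcdha* genes. *Pcdhgc3*, a C-type isoform of the *Pcdhg* array, held the largest part of the signal at 291.0 in controls and 276.6 in mutants. That was 39.7% of the clustered sum in controls and 39.4% in mutants, and 58.3% and 58.2% of the *Pcdhg* sum.

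**Figure D3:**
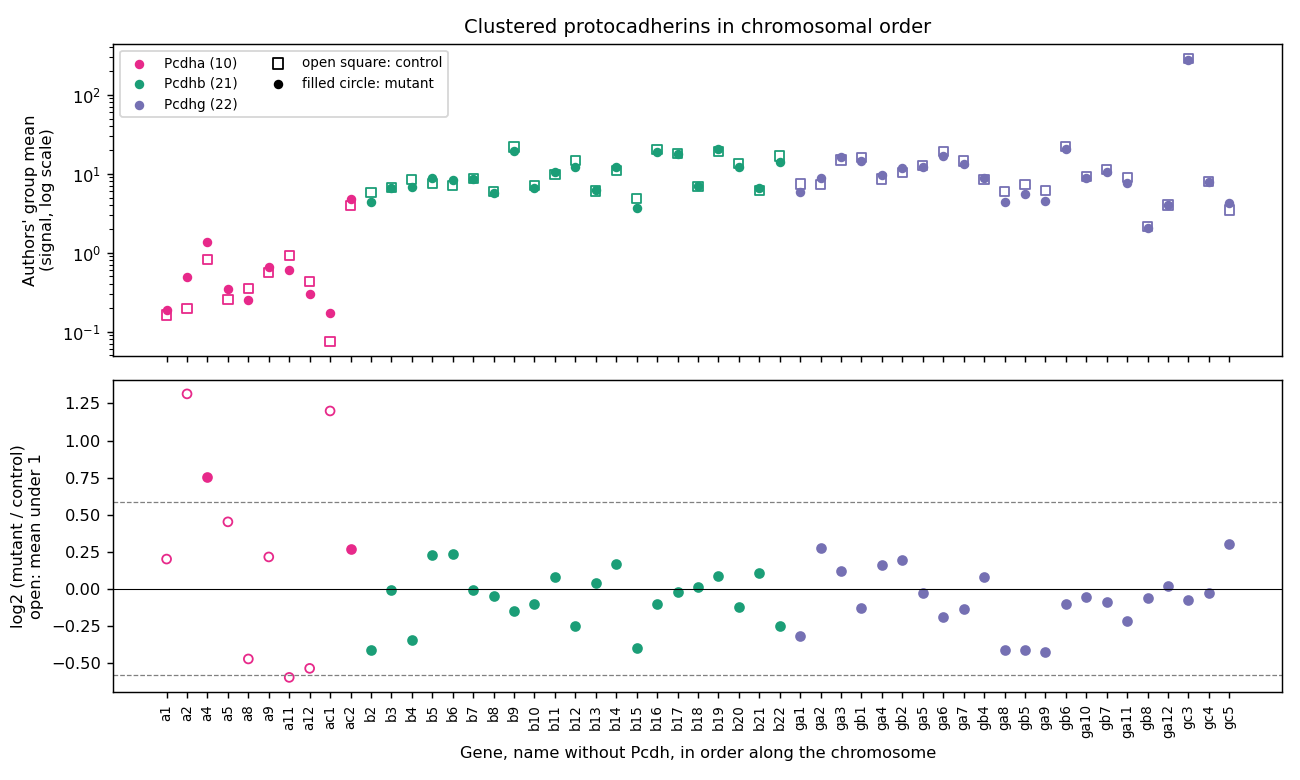
The 53 clustered protocadherin genes in their order along the chromosome. The upper panel gives control means (open squares) and mutant means (filled circles) in normalized signal on a log scale, and the lower panel gives log2 of mutant over control, open where the mean is under 1, with dashed lines at 1.5-fold. The *Pcdhb* and *Pcdhg* genes stay between the dashed lines, and the points beyond them belong to the low *Pcdha* genes.

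The *Pcdha* array had little signal, with 8 of 10 genes under a mean of 1 and sums of 7.75 in controls and 9.16 in mutants. *Pcdha4*, the only one of the 4 past the limit whose mean was 1 or more, was at 0.811 and 1.37, 1.68-fold higher. Of its 50-base stretches, 96.7% also occurred in transcripts of other genes, and 57.5% in those of other members. Its value is therefore uncertain. *Pcdha2* (0.195 and 0.486) was higher and *Pcdha11* (0.915 and 0.604) lower past the limit. *Pcdhac1* was at 0.0747 in controls, under the mean that 3 reads per library give, and at 0.171 in mutants, so no fold is given for it. *Pcdhac2*, the C-type isoform with the highest mean of the array, was at 3.99 and 4.79 (log2 ratio 0.26).

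All 21 *Pcdhb* and all 22 *Pcdhg* genes had a mean of at least 1 and none passed 1.5-fold. The *Pcdhb* genes, each encoded by a single exon, ranged from a log2 ratio of -0.41 in *Pcdhb2* (5.85 and 4.39) to 0.24 in *Pcdhb6* (7.08 and 8.33), with 8 higher and 13 lower. Their highest mean was that of *Pcdhb9*, 21.8 in controls and 19.6 in mutants. The *Pcdhg* genes ranged from -0.43 in *Pcdhga9* (6.08 and 4.51) to 0.30 in *Pcdhgc5* (3.47 and 4.28), with 7 higher and 15 lower. Within that array 4 of 12 *Pcdhga*, 2 of 7 *Pcdhgb* and 1 of 3 *Pcdhgc* genes were higher.

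Reads of clustered genes may have been split between them. The share of 50-base stretches that also occurred in transcripts of other genes was 48.2% to 96.7% for the 9 *Pcdha* genes in the annotation (median 59.3%), 20.1% to 65.3% for the *Pcdhg* genes (median 44.9%) and 1.80% to 11.99% for the *Pcdhb* genes (median 5.22%). How the authors assigned such reads is not given in the sources used here, and single *Pcdha* and *Pcdhg* values are uncertain for that reason. For the type I, *Fat*, *Dchs* and non-clustered protocadherin genes the share was 0.

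A larger share of classical cadherins than of clustered protocadherins passed the limit. Past 1.5-fold were 5 of 15 classical genes (33.3%) and 4 of 53 clustered genes (7.55%), against 13.2% of all genes. Counting only those whose mean was 1 or more gave 3 of 11 (27.3%) and 1 of 45 (2.22%), against 6.05%. The 3 classical genes were *Cdh1*, *Cdh4* and *Cdh18*. *Cdh4* and *Cdh18* had means over both groups of only 1.29 and 1.52, and came inside the limit on log2(mean + 1). With a mean of at least 10, *Cdh1* alone of the classical genes passed, and none of the clustered genes did. The median size of the log2 ratio, regardless of sign, was 0.51 in classical and 0.16 in clustered genes, and 0.36 and 0.13 with a mean of at least 1, where all such genes gave 0.10. The median signed log2 ratio was -0.29 over the classical and -0.03 over the clustered genes. Over those whose mean was 1 or more it was -0.012 and -0.05, and the classical median turned to 0.078 where the mean was 10 or more. These are descriptions of 2 gene lists, the clustered genes share an array and part of their sequence, and the difference between the lists was not tested.

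**Figure D4:**
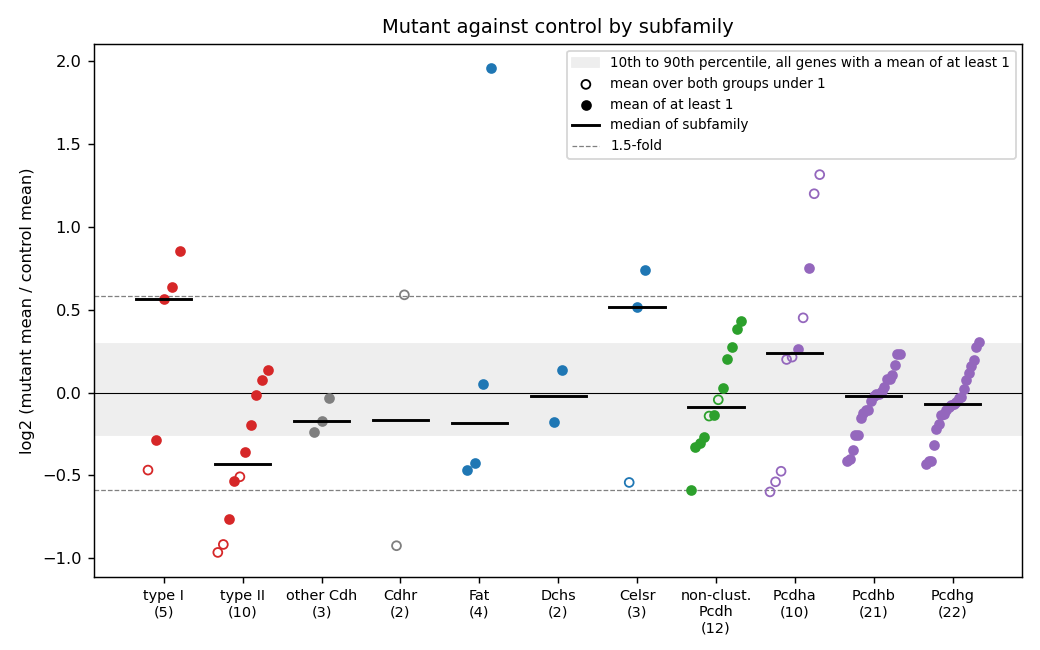
Log2 of mutant over control mean (y axis) for each member, by subfamily (x axis, number of genes in brackets). Filled points have a mean of at least 1 and open points a lower one, black bars are medians, dashed lines mark 1.5-fold, and the grey band covers the 10th to 90th percentile of all genes whose mean is 1 or more, from -0.26 to 0.29. The band describes single genes. The medians are 0.57 for type I and -0.43 for type II, or -0.20 for the 7 type II genes drawn filled, and -0.02 for *Pcdhb* and -0.07 for *Pcdhg*.

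Per kilobase of annotated exon, *Cdh11* led the members in both groups, at a signal of 129.9 per kb in controls and 137.1 in mutants. In the controls *Pcdhgc3* (62.1), *Cdh2* (50.4), *Fat1* (32.7), *Cdh5* (23.8), *Cdh1* (22.6) and *Pcdh18* (21.1) came next. In the mutants *Pcdhgc3* was at 59.0 per kb, *Cdh2* at 41.3, *Cdh1* at 40.8 and *Fat1* at 33.9. *Cdh2* thus had 50.4 against 22.6 per kb for *Cdh1* in controls, and the pair lay side by side in mutants. Without values per sample, it cannot be said which neighbours in these orders differ beyond their spread.

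The intracellular partners of classical cadherins were mostly near equality. Of 11 catenins and vinculin, 1 gene whose mean was 1 or more passed 1.5-fold, where 6.05% of all such genes did. The catenin past it was *Ctnna2* (αN-catenin), the α-catenin of neurons, at 25.4 in controls and 100.5 in mutants, 3.96-fold higher. *Ctnnb1* (β-catenin) had the highest signal of the list, at 1423 and 1355, and *Jup* (plakoglobin), which serves both adherens junctions and desmosomes, had means of 39.7 and 52.1. *Ctnna3*, also past the limit, was under a mean of 1 at 0.163 and 0.250. Of the nectins and afadin, a second adhesion system of adherens junctions, *Nectin4* was 2.38-fold higher at 17.7 and 42.1, and the other 4 were within the limit, *Afdn* among them at 146.1 and 156.9.

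The desmosomal cadherins, which anchor keratin filaments, were higher in mutants in all 7 genes analysed, 6 of them past 1.5-fold. These 6 had a mean of at least 1, and 4.14% of all such genes were higher past the limit. The list was chosen with earlier results of these data known. The highest desmosomal mean was that of *Dsc3*, at 122.9 and 238.9. *Dsg1a* had means of 23.5 and 59.9, *Dsg1b* 8.41 and 19.2, *Dsg2* 38.2 and 62.0, *Dsg3* 1.07 and 3.08, and *Dsc2* 16.6 and 29.3. Their median log2 ratio was 0.96, beside 0.86 for the epithelial markers, and the part of epithelial content was not tested here either. *Dsg4* and *Dsc1* were not analysed here.

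Regulators of the members were within 1.5-fold throughout. All of those listed had a mean of at least 1, and only 6.05% of all such genes passed the limit. Lists this short with none past it are thus near the share of all genes. None of 7 repressors of *Cdh1* passed the limit, and 5 of them were lower by some amount. *Snai1* (Snail) was nearest to it at 58.7 and 39.7, 1.48-fold lower, and *Tcf4*, with the highest mean, was at 249.4 and 240.1. None of 11 partners in Fat-Dachsous signalling and planar polarity passed either, with a median log2 ratio of -0.01. In that list *Fzd3*, a Frizzled receptor that works with Celsr proteins, had means of 188.6 and 187.1, and *Fjx1*, which is related to the Golgi kinase that modifies Fat and Dachsous in flies, 47.8 and 45.4. The 14 regulators of the clustered genes ranged in log2 ratio from -0.04 to 0.15, with 12 higher by any amount. *Ctcf* had means of 119.9 and 125.8, and the cohesin subunit *Stag2* 218.4 and 229.4. *Smchd1*, a silencer of the clustered genes, had means of 121.0 and 130.1.

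**Figure D5:**
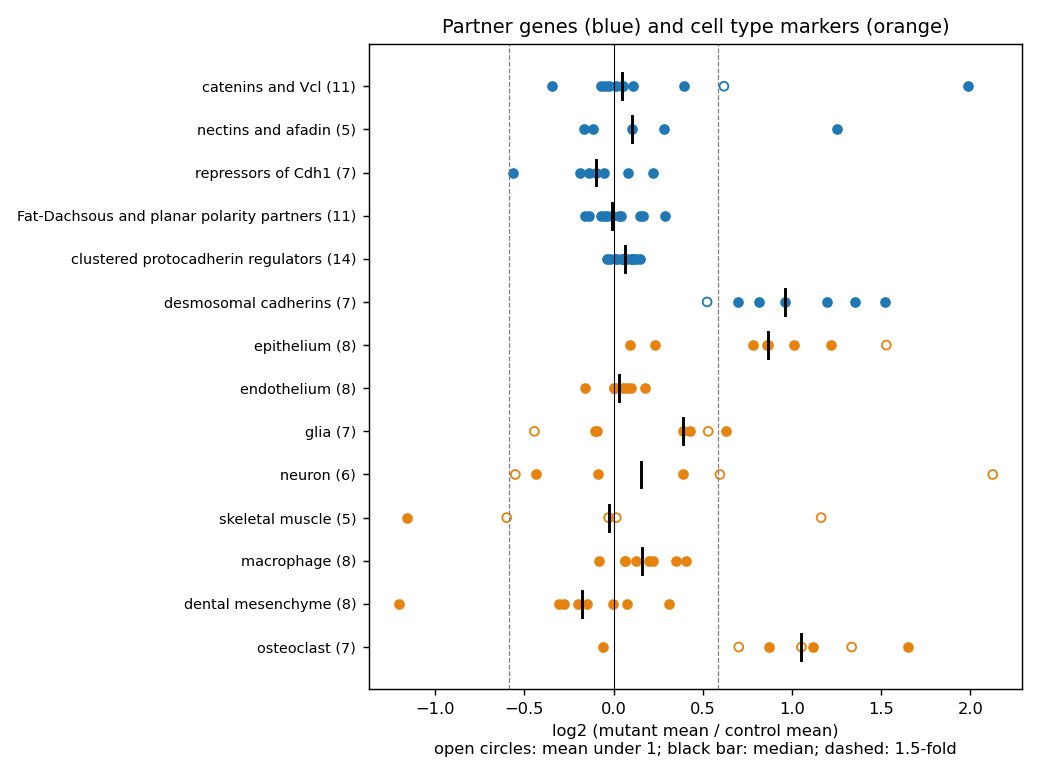
Log2 of mutant over control mean (x axis) for genes of 6 partner lists (blue) and 8 lists of cell type markers (orange), with the number of genes analysed in brackets. Each circle is a gene, open where the mean is under 1, black bars are medians and dashed lines mark 1.5-fold. Desmosomal cadherins, epithelial markers and osteoclast markers lie to the right, with medians of 0.96, 0.86 and 1.05. The repressors of *Cdh1* and the clustered protocadherin regulators lie between the dashed lines. The osteoclast median is the value of *Dcstamp*, whose control mean is under the 0.103 that 3 reads per library give. Of the 7 osteoclast markers, 3 have a mean under 1, and the median of the other 4 is 0.99.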

How the data were processed

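Bulk RNA-seq of 3 control and 3 mutant samples was analysed from deposited tables. Per the paper's methods the authors used Partek Flow to trim reads, to align them to mm10 and to compare mutant with control. The submitters' processing notes name TopHat2 2.0.8, and the counter, annotation, strand setting and normalization are not given in the sources used here. The deposited signal is the authors' normalized mean per gene and group. Its lowest value in each group equals the mean of the libraries' minima, and the upper quartile is 44.57 to 44.58 in every library. The signal was therefore read as reads plus 1 times a factor per library, which is an inference, and fold changes of low genes are compressed by the added read. The authors' 4 columns of their own comparison (p-value, FDR, ratio and fold change), the table filtered on them, and 2 columns of the library summary were not used.

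Log2 ratios of mutant over control means were computed for all 19270 genes. A gene was called higher or lower where the ratio passed 1.5-fold, the fold in the methods, and shares called among members were set beside those of all genes. No test was possible on group means, so the fold stands in place of one. Coordinates and exon lengths are from GENCODE vM21 on GRCm38, which matched 93 of the 94 members, and promoters and chromosomes are from RefSeq. Named genes were the 3 marker genes *Cdh1*, *Cdh2* and *Cdh11*, the highest mean and both extremes of each subfamily, members past the limit with a mean of at least 1, and in each partner list the highest mean and the genes past the limit. Other genes were named after their values were seen. Some genes of the glial marker list are not reported here. The members and all lists were chosen with earlier results of these data known. Alternatives were another offset, filters, a pseudocount of 1, centring, other folds and other list summaries. The scripts were tested on simulated data and used Python 3.11.15, numpy 2.4.6, pandas 2.3.3 and matplotlib 3.10.9.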

Additional observations from a re-analysis of the deposited data

How the results depend on the processing

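The number of members past the limit, 14 of 94, depended on the treatment of low values and on the fold. It was 7 with a mean of at least 1, 4 with a mean of at least 10, 3 on log2(mean + 1), 35 where a mean 25% above the other sufficed and 3 at 2-fold, where 6.05%, 3.06%, 3.41%, 26.5% and 5.17% of the genes tested passed. The classical median of -0.29 was -0.012 with a mean of at least 1, -0.13 on log2(mean + 1), -0.18 as a mean and -0.43 for type II alone. It turned to 0.078 with a mean of at least 10 and to 0.57 for type I alone. The clustered median of -0.03 turned to 0.24 for *Pcdha* alone, and the median of *Fat*, *Dchs* and *Celsr* genes, 0.05, was 0.20 as a mean. Subtracting the offset, over 93 members, or centring on all genes left the count at 14, where 12.5% and 13.2% of genes passed. Both settings kept the medians of these lists and of the non-clustered protocadherins within 0.1, the limit used for log2 ratios. Of the genes named by rule, on log2(mean + 1) *Cdh18* (-0.45), *Cdh4* (0.36), *Cdhr4* (-0.36), *Pcdh9* (-0.56) and *Pcdha4* (0.39) came inside 1.5-fold. No paired analysis was possible because values per gene and sample were not analysed here, and leaving out single samples was not run for the same reason. Each mean stands for 3 samples, and their spread is unknown. Low genes are limited by depth, since a mean of 1 stands for about 37.8 to 52.3 reads per library.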

Other observations

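The remaining lists of cell type markers gave the following values. The 8 macrophage markers had a summed mean of 502.8 in controls and 541.3 in mutants, with none past 1.5-fold. All 8 had a mean of at least 1, where 6.05% of all such genes passed. Of the osteoclast markers, 7 of 8 were in the table and 6 were higher past 1.5-fold. Of the 4 with a mean of at least 1, 3 passed, where 6.05% of all such genes did, and the control means of *Dcstamp* (0.0924) and *Ocstamp* (0.0945) were under the 0.103 that 3 reads per library give. Among the higher markers *Acp5*, the tartrate-resistant phosphatase of osteoclasts, had means of 12.9 and 28.1, while *Ctsk* (cathepsin K) had 79.4 and 76.0. For neurons 6 of 8 markers were in the table, with a summed mean of 38.5 and 47.9 that came mostly from *Tubb3* at 32.0 and 42.0. For skeletal muscle 5 of 8 were in the table, with a summed mean of 3.93 and 2.51, and *Pax7*, *Myod1* and *Myog* were not analysed here.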
